A study of Mus musculus with 6 samples.

Results

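The ionotropic glutamate receptors of the AMPA type and the proteins built into them were followed through 10 genes out of the 52230 mouse genes summed from the files. These were the 4 pore-forming subunits (Gria1, Gria2, Gria3 and Gria4), 4 transmembrane AMPA receptor regulatory proteins or TARPs (Cacng2, Cacng3, Cacng4 and Cacng8) and 2 cornichon proteins (Cnih2 and Cnih3). They were chosen by name, with earlier results of these data known. The RNA was from hippocampi of newborn mice at P0, with 3 Mov10 Deletion libraries and 3 WT libraries, and each library was a pool of at least 2 pups. Mov10 Deletion pups carried a Mov10 allele with LoxP sites around a pair of its exons and an Emx1-driven Cre. They also carried the mutant allele of a Mov10 heterozygous line. Cre thus acts in the Emx1 lineage, which includes excitatory neurons and the progenitors they come from, while the mutant allele is in all cells. WT pups were C57Bl/6 mice with none of these alleles. The libraries held between 71400300 and 86207971 estimated counts, which put between 588 and 42080 estimated counts on each member in each library.

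AMPA receptors are tetramers that carry most of the fast excitatory current in the brain. GluA2, the product of Gria2, makes the channel nearly impermeable to calcium once its RNA has been edited at the Q/R site. TARPs and cornichons bind the assembled channel, help it to the surface and slow its closing, and both kinds are abundant in hippocampal pyramidal neurons. Each subunit transcript also contains one of a pair of mutually exclusive exons, called flip and flop, which code for part of the ligand-binding domain next to the membrane and set how fast the channel desensitizes. Flip is the form known to dominate around birth in rodents.

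The flip and flop exons are shown for Gria2 and Gria4, the subunits in which both were at similar levels in TPM (corrected for length and library size). All 8 exons of the 4 subunits are coding and 115 bases long. Capitals mark the bases at which an exon differs from its partner in the same gene, lower case the shared bases, in GRCm39 from 5′ to 3′ on the gene's strand.

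Gria2 flip exon, chr3:80597711-80597825, minus strand: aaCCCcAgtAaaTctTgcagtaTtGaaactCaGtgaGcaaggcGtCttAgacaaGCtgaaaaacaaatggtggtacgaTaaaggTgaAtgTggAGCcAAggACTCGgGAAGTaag
Gria2 flop exon, chr3:80598627-80598741, minus strand: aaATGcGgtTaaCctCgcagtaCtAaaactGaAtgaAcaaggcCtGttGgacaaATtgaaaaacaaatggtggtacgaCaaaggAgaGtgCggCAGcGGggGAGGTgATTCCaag
Gria4 flip exon, chr9:4427030-4427144, minus strand: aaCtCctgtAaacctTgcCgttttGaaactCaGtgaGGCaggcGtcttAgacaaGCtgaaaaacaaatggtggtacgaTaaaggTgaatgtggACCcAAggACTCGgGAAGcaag
Gria4 flop exon, chr9:4432773-4432887, minus strand: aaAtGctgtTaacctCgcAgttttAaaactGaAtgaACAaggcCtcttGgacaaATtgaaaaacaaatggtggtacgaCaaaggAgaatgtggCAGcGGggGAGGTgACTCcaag

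In Gria2 the partners differed at 36 of 115 bases, an identity of 68.7%, and in Gria4 at 31 of 115 bases, an identity of 73.0%. The flop exon of Gria2 was closer to the flop exon of Gria4 (93.9% identity) than to its own flip partner, and the flip exons of these genes shared 92.2%.

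The label of the libraries was checked on Mov10 itself. Mov10 was at 2.45, 2.14 and 2.09 CPM (counts scaled to library size) in the Mov10 Deletion libraries, against 4.81, 4.75 and 4.80 CPM in the WT libraries, a log2 fold change of -1.11 (SE 0.10, adjusted p = 0.00115). CPM are TMM-normalized gene sums. Fold changes and adjusted p-values come from limma-trend with genotype and 2 factors of unwanted variation, with Benjamini-Hochberg adjustment over all 16745 tested genes and a threshold of 0.05. Of these genes 4137 were called (24.7%), 2104 higher in Mov10 Deletion (12.6%) and 2033 lower (12.1%). With upper-quartile normalization the split was 2320 higher and 1491 lower. The median log2 fold change of all tested genes was 0.0056.

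Of the 4 subunit genes, 3 rose in Mov10 Deletion hippocampi (Gria1, Gria2 and Gria3), by between 1.10-fold and 1.25-fold, while one TARP gene (Cacng2) and one cornichon gene (Cnih3) fell, to 0.888 and 0.825 of the WT level. The remaining 5 members did not pass the test. Thus 5 of 10 members were called, beside 24.7% of all tested genes. Without the factors of unwanted variation 3 of 10 members were called (Gria2, Gria3 and Cnih3), beside 21% of all tested genes. In CPM the groups did not overlap for 6 of 10 members, 3 of them higher and 3 lower, beside 41.6% of all tested genes. The median log2 fold change over the 10 members was 0.02, with 5 positive and 5 negative values.

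**Figure D1:**
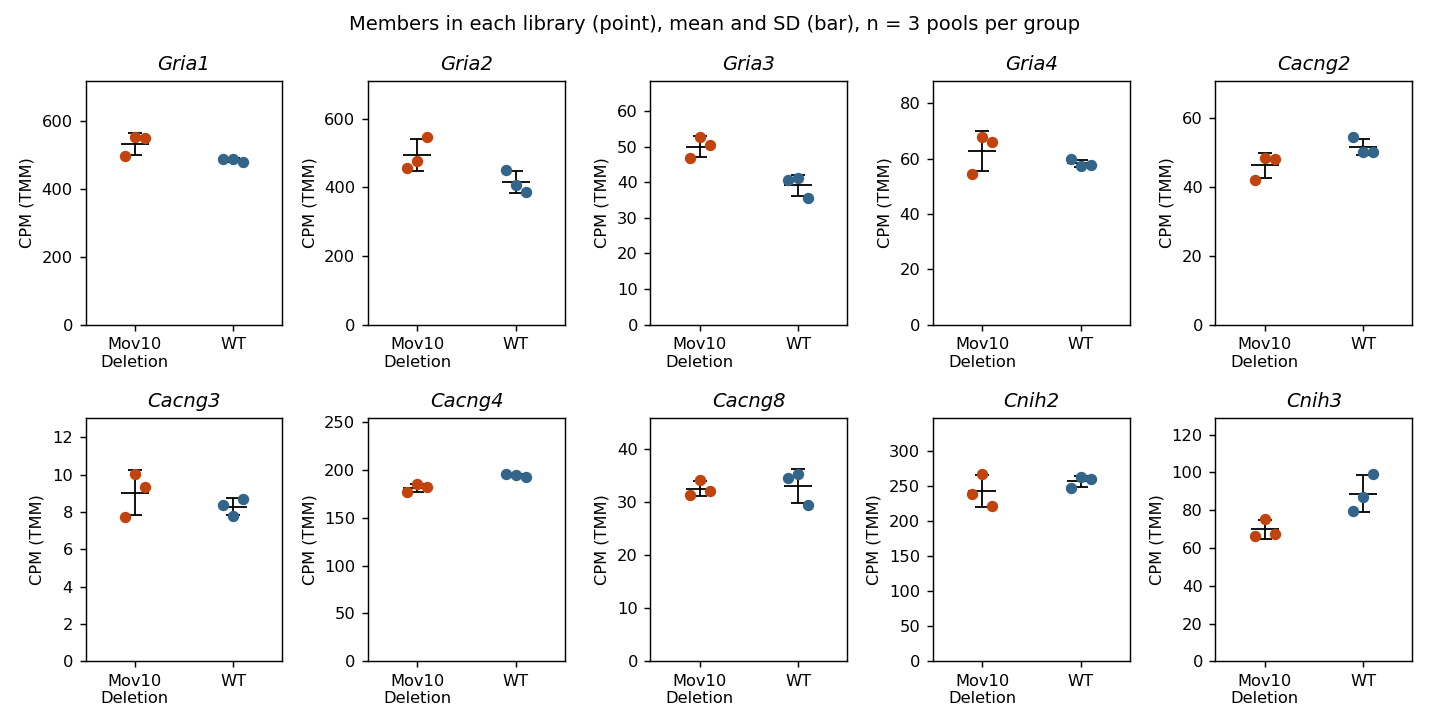
TMM-normalized CPM of each member (vertical axis, from 0) in the 3 Mov10 Deletion pools (left) and the 3 WT pools (right) of each panel; points are libraries and bars the mean and SD. The points of the groups are separate for Gria1, Gria2, Gria3, Cacng2, Cacng4 and Cnih3 and overlap for Gria4, Cacng3, Cacng8 and Cnih2.

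Levels were compared between genes only per length, in TPM (corrected for length and library size) summed over the transcripts of a gene. Cnih2 was highest, with 436 ± 38.9 TPM in Mov10 Deletion and 444 ± 8.83 TPM in WT (mean ± SD of 3 libraries in each group here and below), above 98.3% of tested genes by mean TPM. Gria2 followed at 238 ± 30.0 TPM in Mov10 Deletion and 199 ± 18.8 TPM in WT, and Gria1 at 181 ± 10.7 TPM and 166 ± 4.73 TPM in the same order. Cacng4, the TARP known for its high expression in developing brain, stood at 104 ± 1.36 TPM in Mov10 Deletion and 110 ± 3.74 TPM in WT. Below it came Cnih3, Cacng8, Gria4, Gria3 and Cacng2 with means over the 6 libraries of 73.5, 43.0, 36.6, 21.2 and 17.4 TPM. Cacng3 was lowest, at 6.23 ± 0.757 TPM in Mov10 Deletion and 6.33 ± 0.974 TPM in WT. In Mov10 Deletion no gene overlapped the next one in this order, whereas in WT the ranges overlapped for Cacng8 with Gria4 and for Gria3 with Cacng2.

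**Figure D2:**
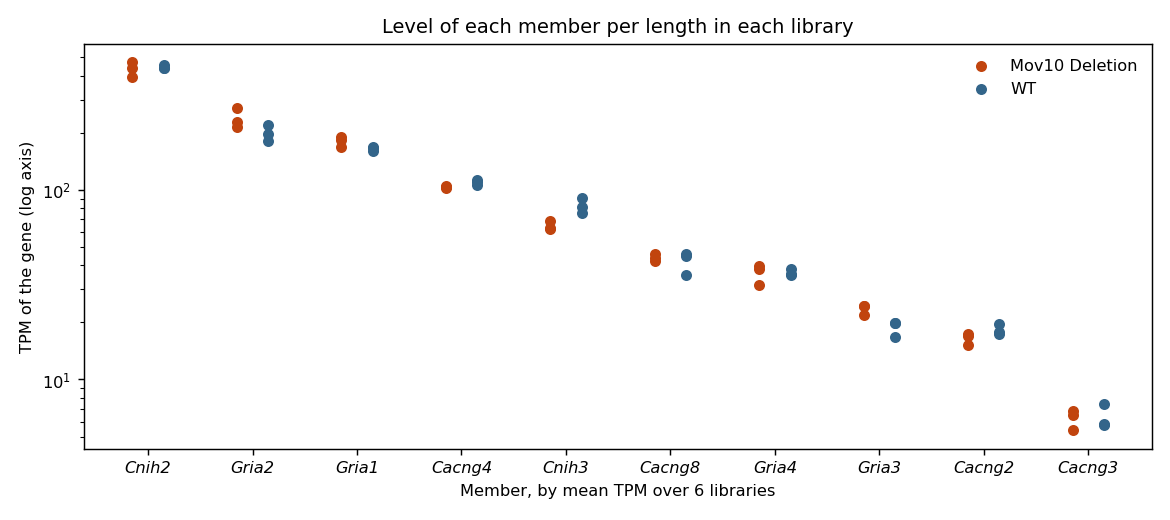
Summed TPM of each member (vertical log axis) in each library, Mov10 Deletion left and WT right of each name, with members ordered by mean TPM over the 6 libraries. Levels span from 5.39 TPM for Cacng3 in one Mov10 Deletion library to 471 TPM for Cnih2 in another.

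Gria3 (chrX:40489476-40767490, plus strand), a subunit that mostly pairs with GluA2, showed the largest rise among the subunits. It was at 46.9, 52.6 and 50.4 CPM in Mov10 Deletion, against 40.6, 41.1 and 35.7 CPM in WT. Every Mov10 Deletion library lay above every WT library. The log2 fold change was 0.32 (SE 0.05, 95% interval 0.21 to 0.43, adjusted p = 0.00434). It passed in 24 of 25 alternative analyses and was positive in all 25. Gria3 is X-linked and the pools differed in the X-inactivation RNA Xist, with 0.184, 888 and 1.57 CPM in Mov10 Deletion and 182, 251 and 643 CPM in WT. With a sex score in place of the factors the log2 fold change of Gria3 was 0.40 (SE 0.08, adjusted p = 0.0263). The part of the make-up of the pools by sex in the Gria3 values was not tested further.

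Gria2 (chr3:80588757-80710538, minus strand) codes for GluA2. It was at 457, 478 and 546 CPM in Mov10 Deletion, against 450, 407 and 387 CPM in WT. The lowest Mov10 Deletion library was only just above the highest WT library, and summed TPM overlapped between the groups. The log2 fold change was 0.22 (SE 0.06, 95% interval 0.08 to 0.36, adjusted p = 0.0375). Gria2 passed in 19 of 25 alternatives and was positive in all 25. With a sex score in place of the factors the adjusted p was 0.163 at a log2 fold change of 0.23. Without WT replicate 2 the adjusted p was 0.0722 at a log2 fold change of 0.21, and with protein-coding transcripts alone it was 0.152 at 0.19. Other single libraries moved the size but not the call, to a log2 fold change of 0.13 without Mov10 Deletion replicate 3 (adjusted p = 0.0150) and 0.33 without WT replicate 1 (adjusted p = 0.000782).

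Gria1 (chr11:56902153-57221080, plus strand) codes for GluA1, the subunit best known for its activity-dependent entry into synapses. It was at 495, 551 and 549 CPM in Mov10 Deletion, against 486, 488 and 479 CPM in WT. The WT libraries were close together, and one Mov10 Deletion library stood near them. The log2 fold change was 0.14 (SE 0.04, 95% interval 0.05 to 0.22, adjusted p = 0.0304). Gria1 passed in 17 of 25 alternatives and was positive in all 25. Among others, the call was lost without the factors (adjusted p = 0.0919, log2 fold change 0.13) and without WT replicate 2 (adjusted p = 0.160, log2 fold change 0.15). It was also lost with a sex score in place of the factors (adjusted p = 0.0802, log2 fold change 0.18).

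Gria4 (chr9:4417604-4796326, minus strand), whose product GluA4 is prominent in young hippocampus and in interneurons, did not pass. It was at 54.5, 67.7 and 66.0 CPM in Mov10 Deletion, against 59.7, 57.3 and 57.7 CPM in WT. One Mov10 Deletion library was the lowest of the 6 and the other Mov10 Deletion libraries were the highest. The log2 fold change was 0.11 (SE 0.04, adjusted p = 0.0747), and without Mov10 Deletion replicate 1 it was 0.19 with an adjusted p of 0.00490. Per length no difference was seen, with 36.5 ± 4.27 TPM in Mov10 Deletion and 36.6 ± 1.27 TPM in WT, and the log2 fold change was -0.0061 when counts were scaled for transcript length.

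The transcripts behind Gria4 differed in that respect. Gria4-203 is a short form of 11 exons and 2338 bases with a coding length of 1299 bases and neither the flip nor the flop exon, while the longer form Gria4-202 has 17 exons. Gria4-203 was at 14.3, 18.9 and 16.4 TPM in Mov10 Deletion, against 19.7, 18.2 and 20.0 TPM in WT. As a share of Gria4 TPM it made up 45.2%, 47.8% and 42.7% in Mov10 Deletion, against 51.9%, 50.9% and 55.5% in WT. The shares of the groups did not overlap. Among the other member transcripts this was also so for Cnih3-203 and for Gria3-209, the latter at 0.118 ± 0.109 TPM in WT. How often it occurs over all transcripts was not computed. In diffSplice, which asks whether a transcript moves apart from the others of its gene, Gria4-203 had a log2 difference of -0.42 from the other Gria4 transcripts, with an adjusted p of 0.0916. The test of the whole gene gave an adjusted p of 0.126, beside 5.51% of the genes with more than one tested transcript that were called. With voom weights, an analysis added after seeing the data, the adjusted p was 0.0498.

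Of the 7 members with more than one tested transcript, diffSplice called 0. At an unadjusted p under 0.05 there was 1 (Gria4). The diffSplice adjusted p-values of the other members lay between 0.338 and 0.925. Cnih3 came next in order. Its main transcript, Cnih3-201, held 89.1 ± 0.969% of Cnih3 TPM in Mov10 Deletion and 88.6 ± 1.19% in WT. The minor transcript Cnih3-203 held 5.81 ± 0.457% in Mov10 Deletion and 7.13 ± 1.07% in WT, without overlap.

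Gria2 stood apart from the other subunits by the kinds of transcripts its reads were assigned to. Transcripts annotated as retaining an intron held 46.2%, 51.0% and 53.0% of Gria2 TPM in Mov10 Deletion, against 45.8%, 47.3% and 50.1% in WT. Nearly all of this lay on Gria2-204 and Gria2-206. In Gria3 the share was 11.3 ± 1.85% in Mov10 Deletion and 12.8 ± 3.12% in WT, while no transcript of this kind is indexed for Gria1 or Gria4. Gria2-204 alone was at 51.8, 59.7 and 76.1 TPM in Mov10 Deletion, against 49.9, 46.9 and 47.9 TPM in WT. For the protein-coding pair Gria2-201 and Gria2-202 together, the share of the gene was 44.1 ± 2.85% in Mov10 Deletion and 47.0 ± 2.36% in WT (exact permutation test, two-sided, p = 0.2, n = 3 each). With 3 libraries against 3 this test cannot go below 0.1.

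**Figure D3:**
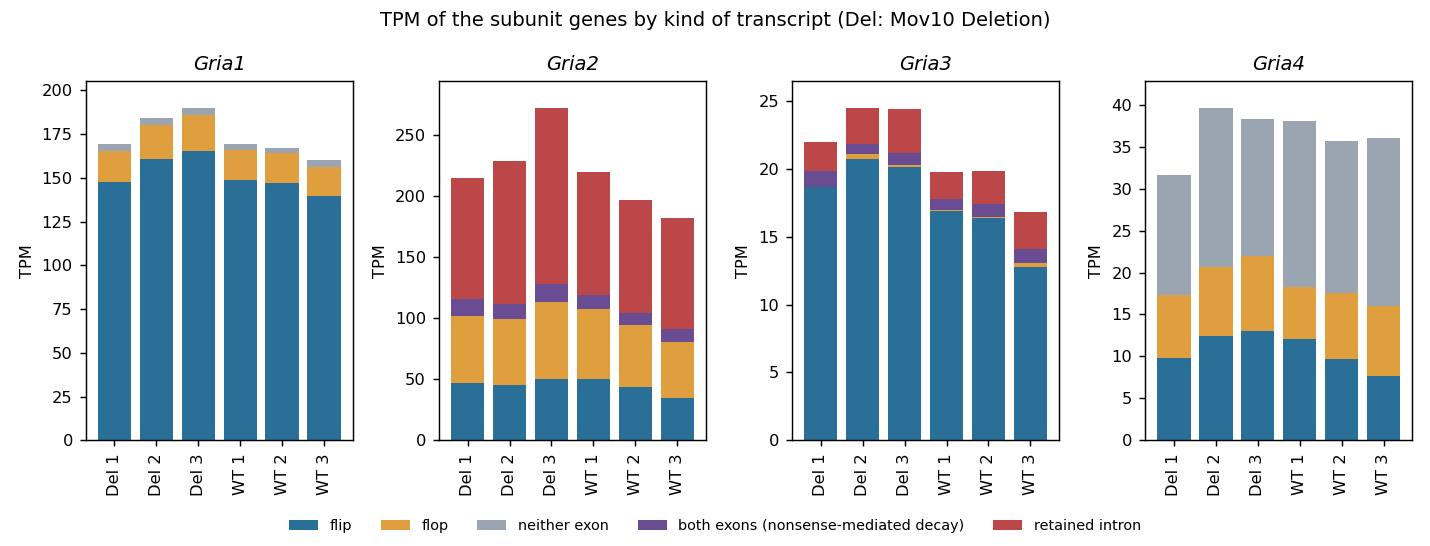
TPM of the 4 subunit genes (vertical axes, from 0) in each library, Mov10 Deletion left and WT right, split by whether the transcripts hold the flip exon, the flop exon, neither, or both, or are annotated as retaining an intron. Intron-retaining transcripts make up between 45.8% and 53.0% of Gria2, flip dominates Gria1 and Gria3, and the transcript with neither exon is the largest part of Gria4.

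The flip share, the TPM of flip transcripts as a percentage of flip and flop together, differed far more between subunits than between genotypes. By assigned reads, Gria3 was almost wholly flip, at 99.1 ± 0.823% in Mov10 Deletion and 99.2 ± 0.887% in WT. The Gria3 flop transcripts Gria3-202 and Gria3-209 are short, at 3081 and 2667 bases against 5192 bases in the flip transcript Gria3-201. Reads outside the exon pair thus also decide the Gria3 share, and flop held between 0 and 37.8 estimated counts in a library. Gria1 was mostly flip, at 89.2 ± 0.206% in Mov10 Deletion and 89.5 ± 0.178% in WT. Gria4 was at 56.8%, 60.0% and 59.7% in Mov10 Deletion, against 66.2%, 55.3% and 47.9% in WT, so that the WT pools alone spanned the Mov10 Deletion values. Gria2 was at 45.2 ± 0.865% in Mov10 Deletion and 45.4 ± 2.29% in WT. In estimated counts, not corrected for length, its flip share was 31.0 ± 0.522% in Mov10 Deletion and 31.3 ± 1.84% in WT. The Gria2 values rest on one transcript each, and the flop transcript Gria2-201 has a last exon of 7265 bases against 920 bases in the flip transcript Gria2-202, so reads outside the exon pair also decide them. Exact permutation tests gave two-sided p between 0.2 and 1 and adjusted p between 0.8 and 1 over the 4 genes (n = 3 each).

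The editing enzymes gave a mixed picture. ADAR2, the product of Adarb1, edits the Q/R site of Gria2, and Adarb1 was at 54.3, 57.8 and 61.3 CPM in Mov10 Deletion, against 55.1, 52.3 and 52.7 CPM in WT (log2 fold change 0.11, SE 0.05, adjusted p = 0.120). Adar did not pass either, with a log2 fold change of 0.09 and an adjusted p of 0.188. Adarb2, a brain-restricted relative for which no editing activity is known, rose to 25.2, 27.7 and 29.0 CPM in Mov10 Deletion, against 22.0, 21.8 and 20.5 CPM in WT (log2 fold change 0.34, SE 0.05, adjusted p = 0.00559). The files hold no reads, so editing itself was not measured.

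Among the TARP genes listed as members, Cacng2 (chr15:77875948-78004441, minus strand), which codes for stargazin, was the only one called. It was at 42.1, 48.5 and 48.2 CPM in Mov10 Deletion, against 54.5, 50.3 and 50.3 CPM in WT. In CPM all Mov10 Deletion libraries were below all WT libraries, but the nearest ones by little, and summed TPM overlapped between the groups. The log2 fold change was -0.17 (SE 0.04, 95% interval -0.27 to -0.08, adjusted p = 0.0219). It was negative in 25 of 25 alternatives and passed in 13, and the call was lost without the factors (log2 fold change -0.16, adjusted p = 0.0969) and without WT replicate 2 (log2 fold change -0.19, adjusted p = 0.0526). It was also lost, with a smaller log2 fold change, without Mov10 Deletion replicate 1 (-0.11, adjusted p = 0.0918) and without WT replicate 1 (-0.11, adjusted p = 0.162). With a sex score in place of the factors the log2 fold change was -0.11 with an adjusted p of 0.393. With counts scaled for transcript length the adjusted p was 0.104 at -0.16, and with protein-coding transcripts alone it was 0.121 at -0.13. The noncoding gene A730060N03Rik on the opposite strand overlaps a Cacng2 exon, and the libraries were stranded.

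Cacng4 (chr11:107623183-107685662, minus strand) was at 177, 185 and 182 CPM in Mov10 Deletion, against 196, 195 and 192 CPM in WT. The groups did not overlap, yet the difference was small and did not pass (log2 fold change -0.10, SE 0.03, adjusted p = 0.0596). It passed in 4 of 25 alternatives, with adjusted p between 0.00793 and 0.303 over all of them. The adjusted p was 0.00793 without Mov10 Deletion replicate 2, 0.0434 without Mov10 Deletion replicate 3 and 0.0291 without WT replicate 3, but 0.0729 without Mov10 Deletion replicate 1, 0.160 without WT replicate 1 and 0.289 without WT replicate 2.

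Cacng8 (chr7:3439199-3464781, plus strand) codes for the TARP known as gamma-8, typical of the hippocampus. It was at 31.3, 34.1 and 32.1 CPM in Mov10 Deletion, against 34.4, 35.2 and 29.3 CPM in WT (log2 fold change -0.06, SE 0.06, 95% interval -0.19 to 0.07, adjusted p = 0.466). One WT library was the lowest of the 6 and the others of that group the highest. Cacng3 (chr7:122269715-122368619, plus strand), the gamma-3 TARP, was at 7.72, 10.04 and 9.36 CPM in Mov10 Deletion, against 8.39, 7.78 and 8.68 CPM in WT (log2 fold change 0.15, SE 0.07, adjusted p = 0.164). Its groups overlapped, and without Mov10 Deletion replicate 1 the log2 fold change was 0.24 with an adjusted p of 0.0435.

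Cnih3 (chr1:181180024-181289051, plus strand) fell most among the members. It was at 66.5, 75.4 and 67.6 CPM in Mov10 Deletion, against 79.8, 87.0 and 99.1 CPM in WT. The groups were separate, with the wider spread in WT. The log2 fold change was -0.28 (SE 0.05, 95% interval -0.39 to -0.17, adjusted p = 0.00681). It was negative in 25 of 25 alternatives and passed in 23 of them; with a sex score in place of the factors the adjusted p was 0.108 at a log2 fold change of -0.24. Cnih2 (chr19:5142891-5148672, minus strand), the more abundant cornichon, was at 239, 267 and 222 CPM in Mov10 Deletion, against 248, 262 and 260 CPM in WT (log2 fold change -0.07, SE 0.07, 95% interval -0.23 to 0.08, adjusted p = 0.458). Its highest and its lowest library were both Mov10 Deletion. Without Mov10 Deletion replicate 2 the log2 fold change of Cnih2 was -0.15 with an adjusted p of 0.00170, and without Mov10 Deletion replicate 3 it was 0.0040 with an adjusted p of 0.948.

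**Figure D4:**
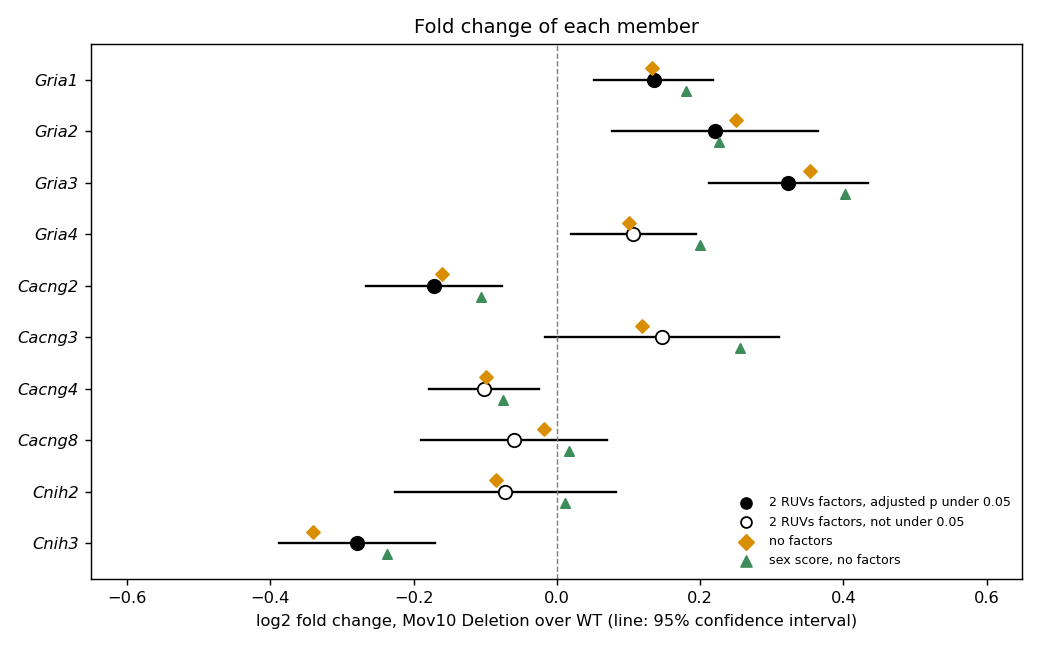
Log2 fold change of each member, Mov10 Deletion over WT (horizontal axis), with its 95% confidence interval; filled circles passed the threshold of 0.05, open circles did not, and diamonds and triangles give the values without factors and with a sex score in their place. The subunits lie right of 0, and Cacng2, Cacng4 and Cnih3 lie left of it under all 3 analyses drawn.

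The make-up of each family was then compared as shares of its summed TPM. Gria2 held 49.0%, 47.9% and 51.8% of subunit TPM in Mov10 Deletion, against 49.1%, 46.9% and 46.1% in WT. Gria1 held 37.9 ± 1.42% in Mov10 Deletion and 39.4 ± 1.37% in WT, and Gria3 4.94 ± 0.255% and 4.47 ± 0.239% in the same order. The share of Gria4 was 7.24%, 8.32% and 7.29% in Mov10 Deletion, against 8.52%, 8.50% and 9.12% in WT, with no overlap (exact permutation test, two-sided, p = 0.1, adjusted p = 0.333 over the 10 shares, n = 3 each). On protein-coding transcripts alone the Gria4 shares overlapped (10.7 ± 0.831% in Mov10 Deletion and 11.8 ± 0.578% in WT), as they did in CPM (5.50 ± 0.358% and 5.85 ± 0.145% in the same order), with an exact permutation p of 0.3 in both. The Gria3 shares, which overlapped in TPM of all transcripts (p = 0.2, exact permutation), were separate and higher in Mov10 Deletion in both of those settings (p = 0.1, exact permutation, adjusted p = 0.333). Counted on protein-coding transcripts alone, Gria2 held 30.6 ± 1.52% in Mov10 Deletion and 30.1 ± 2.26% in WT, and Gria1 became the largest at 52.9 ± 0.529% and 53.2 ± 2.10%. The place of Gria2 as the leading subunit in TPM thus rested on the intron-retaining transcripts.

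The TARP sum here covers Cacng2, Cacng3, Cacng4 and Cacng8 and leaves out the related genes Cacng5 and Cacng7. Within this sum, Cacng4 took 60.8 ± 1.01% in Mov10 Deletion and 62.3 ± 1.85% in WT. Cacng8 took 25.8 ± 1.03% in Mov10 Deletion and 23.8 ± 1.89% in WT. Within the cornichons, Cnih3 took 12.4%, 12.7% and 13.8% in Mov10 Deletion, against 14.6%, 15.1% and 17.2% in WT. The Cnih3 shares did not overlap (exact permutation test, two-sided, p = 0.1, adjusted p = 0.333, n = 3 each). Set against the subunits, summed TARP TPM was 0.380, 0.365 and 0.325 of summed subunit TPM in Mov10 Deletion and 0.418, 0.427 and 0.417 in WT, again without overlap. For the cornichons the ratio was 1.15, 1.13 and 0.871 in Mov10 Deletion and 1.15, 1.28 and 1.34 in WT, where one pair of libraries was nearly equal. The ratios gave an exact two-sided p of 0.1 each (permutation, n = 3 each), the smallest this design allows, and were chosen after the member values were known. On protein-coding transcripts alone the TARP ratio stayed without overlap (p = 0.1, exact permutation), whereas the cornichon ratio overlapped between the groups, at 1.55, 1.55 and 1.25 in Mov10 Deletion against 1.54, 1.68 and 1.80 in WT (p = 0.3, exact permutation).

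**Figure D5:**
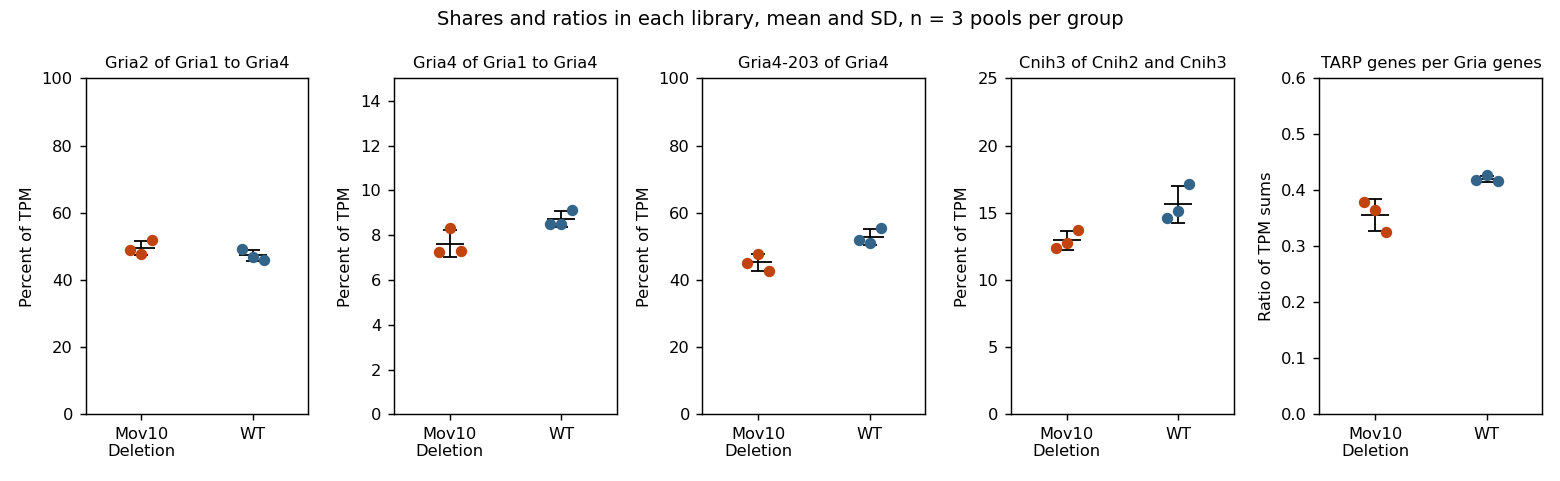
Shares of the TPM of all transcripts and the ratio of the TARP members to the subunits in summed TPM (vertical axes, from 0). Each panel has the 3 Mov10 Deletion pools (left) and the 3 WT pools (right), with mean and SD. The Gria2 share overlaps between the groups, while the Gria4 share, the Gria4-203 share, the Cnih3 share and the TARP ratio are lower in every Mov10 Deletion pool than in every WT pool.

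Other genes of AMPA receptor biology were read from lists. Of 20 tested genes for other auxiliary and assembly proteins, 4 rose, 2 fell and 14 did not pass, beside 12.6% higher and 12.1% lower of all tested genes, with a median log2 fold change of 0.06. Without the factors 3 of the 20 were called (Prrt1, Porcn and Cacng7), beside 21% of all tested genes. Prrt1, which codes for the auxiliary protein SynDIG4, rose to 83.1, 98.3 and 90.9 CPM in Mov10 Deletion, against 68.6, 71.01 and 62.6 CPM in WT (log2 fold change 0.41, SE 0.05, adjusted p = 0.00231). Porcn, which codes for an acyltransferase found in AMPA receptor complexes, rose by 0.32 on the log2 scale (adjusted p = 0.00745), and Cpt1c and Shisa7 were the other risers, both with CPM that overlapped between the groups and adjusted p of 0.0796 and 0.129 without the factors. The related genes Cacng7 and Cnih1 fell. Cacng7 had a log2 fold change of -0.13 (adjusted p = 0.0312, and 0.0404 without the factors). Cnih1 had a log2 fold change of -0.13 (adjusted p = 0.0460, and 0.0575 without the factors).

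Of 23 trafficking and anchoring genes, 7 rose (Arc, Dlg2, Dnm3, Grip2, Myo5b, Nsf and Pick1), 1 fell and 15 did not pass, beside the same 12.6% and 12.1%, and the median log2 fold change was 0.0033. Without the factors 6 of the 23 were called, beside 21% of all tested genes, Myo5b and Pick1 being lost. Arc, an activity-induced gene whose protein promotes removal of AMPA receptors from the surface, was at 3.97, 2.72 and 2.87 CPM in Mov10 Deletion, against 1.75, 1.98 and 2.28 CPM in WT (log2 fold change 0.69, SE 0.11, adjusted p = 0.00559). Dnm3, a dynamin of the postsynaptic endocytic zone, rose by 0.22 on the log2 scale (adjusted p = 0.00514). Rab11fip2, which links recycling endosomes to a myosin motor, was the gene that fell, to 99.3, 115 and 111 CPM in Mov10 Deletion, against 124, 124 and 138 CPM in WT (adjusted p = 0.00783).

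By the likeness of log2 CPM over the 6 libraries, the genes nearest to Cnih2, the member with the highest TPM, were Lgi2 (Pearson r = 0.998), Gnb2 (r = 0.988) and Ppp2r1a (r = 0.986). These are the highest among all tested genes over only 6 libraries that share depth and composition, and none of these genes was called (adjusted p of 0.517, 0.745 and 0.437).

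Because the tissue is mixed, more cells of a type and more RNA per cell cannot be told apart. Marker lists were read beside the members. Their counts of called genes stand beside 12.6% higher and 12.1% lower of all tested genes, and counts without the factors beside 21% in either direction. Of 11 excitatory neuron markers 1 rose and none fell, and their summed level was between 3138 and 3386 CPM in Mov10 Deletion and between 2916 and 3059 CPM in WT. The marker that rose, Zbtb20, made this difference, since the other 10 summed to between 1615 and 1652 CPM in Mov10 Deletion and between 1609 and 1703 CPM in WT, and the median log2 fold change of the list was -0.04. Slc17a7, one of these 10, was called without the factors (log2 fold change 0.37, adjusted p = 0.0359) but not with them (0.31, adjusted p = 0.0605). Of 7 general neuron markers 2 rose (Rbfox3 and Snap25), with sums between 4580 and 5017 CPM in Mov10 Deletion and between 4600 and 4694 CPM in WT. Of 7 astrocyte markers 2 rose (Aqp4 and Gfap), with sums between 1539 and 1611 CPM in Mov10 Deletion and between 1303 and 1484 CPM in WT. Of 7 radial glia and progenitor markers 3 fell (Mki67, Pax6 and Top2a) and 1 rose (Hes5). Their sums lay between 525 and 587 CPM in Mov10 Deletion and between 574 and 613 CPM in WT. Without the factors 2 of these 7 were called (Top2a and Hes5). Interneuron markers, of which 1 of 10 rose and 1 fell, summed to between 389.5 and 471 CPM in Mov10 Deletion and between 431 and 460 CPM in WT. The remaining lists (Cajal-Retzius, oligodendrocyte lineage, microglia, endothelium, choroid plexus and erythroid genes) held 5 called genes out of 26 (Olig2, Cldn5, Ttr, Hba-a1 and Hbb-bt), all with negative log2 fold changes, of which Cldn5 and Hbb-bt were called without the factors. The sign of Ttr, the choroid plexus gene, rests on the log scale and the fit, since its CPM were 45.6, 0.786 and 3.75 in Mov10 Deletion against 13.4, 11.6 and 5.10 in WT, with the higher mean in Mov10 Deletion and an adjusted p of 0.619 without the factors. No listed marker of any cell type was at 0 in a library. The part of these shifts in the values of the AMPA receptor genes was not tested.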

How the data were processed

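Poly(A)-selected, stranded libraries of newborn mouse hippocampus, pooled from pups by the authors, were quantified by them with Salmon 1.4.0 against the mouse transcriptome with the GRCm39 genome as decoy. The deposited files give, per transcript, estimated counts, TPM (corrected by the authors for effective length and depth) and lengths. The sources used here do not give the annotation release of the index. Transcripts were matched without version to GENCODE M39 (137570 of 139225), and unmatched ones, with between 0.589% and 0.600% of the counts, were left out. Exon sequences and positions came from GRCm39.

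Estimated counts were summed per gene. Genes reaching 0.25 CPM in 3 or more libraries were fitted with TMM and limma-trend (log2 CPM, prior count 2; R 4.3.3, limma 3.58.1, edgeR 4.0.16) on genotype and 2 factors of unwanted variation, following the study's methods, which name RUVSeq but neither its function nor its input. RUVs was used here, written out in R with all tested genes as controls. Several inputs were compared after their counts of calls were seen, and TMM-normalized log counts were kept because they matched an earlier analysis of these data. The other inputs are given under the alternatives. The factors were estimated from these libraries, so p-values rest on the spread between pools that the factors left, with 2 residual degrees of freedom. That spread was moderated toward the trend over all tested genes, which added 5.89 prior degrees of freedom. The fit was tested on simulated data, where it made more false calls than its threshold allows and missed most small changes. The diffSplice test made false calls in the majority there, and other settings compared on simulated data also exceeded the threshold, so usage calls are weak evidence.

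Shares used exact permutation tests. Alternatives covered factors, normalization, filters, edgeR quasi-likelihood and DESeq2 1.42.0 on rounded counts, and each library left out. The members and lists were chosen with earlier results of these data known. Named list genes are those with the 2 smallest p in each direction among called members; further ones were named after their values were seen.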

Additional observations from a re-analysis of the deposited data

How the results depend on the processing

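Among 25 alternatives, Gria1, Gria2, Gria3, Cacng2, Cacng4 and Cnih3 kept their direction in all, and Gria3 and Cnih3 passed in 24 and 23. The number of members called, 5 of 10, was 3 without factors, 3 with edgeR quasi-likelihood without factors and 1 with a sex score (Gria3). In settings chosen after seeing the data it was 3 with protein-coding transcripts only and 3 with RUVs on log2 of CPM plus 1. It was 4 with 1 RUVs factor, with DESeq2 without factors and with counts scaled for transcript length. More members, 6, were called with 2 RUVr factors (beside 5568 of 16745 genes) and with upper-quartile normalization (3811 of 16745). The number was also 6 with at least 1 CPM in 3 libraries (3794 of 14478). Without a filter on low counts it was 0, with 6 members at an unadjusted p under 0.05 and the smallest adjusted p at 0.0720 (Cnih3). Leaving out 1 library gave between 2 members (without WT replicate 2, beside 2803 of 16643 genes) and 7 (without Mov10 Deletion replicate 2, beside 5797 of 16603 genes). Over all genes, 4137 calls became 1364 with the sex score, 925 (of 29469 genes) without a filter and 2202 with RUVs on log2 of CPM plus 1. The other RUVs inputs tried after seeing the data gave between 3682 and 4093. Protein-coding transcripts only gave 2917 calls of 14469 genes, and edgeR quasi-likelihood without factors 3479 of 16745. The replicate block, without factors, called 2 members (Gria3 and Cnih3, with Gria2 at an adjusted p of 0.0576) and 3425 genes. Same-numbered libraries correlated at 0.011, -0.071 and 0.043 in their deviations, and not every library correlated best with its own number. The labels do not say what the number stands for, and correlations this small cannot decide whether same-numbered libraries were prepared together. Members that did not pass changed sign in a few settings: with counts scaled for transcript length Gria4 was -0.0061, Cacng3 -0.035 and Cacng8 0.036 (log2), and with the sex score Cacng8 was 0.017 and Cnih2 0.011. Leaving out 1 library gave between -0.10 and 0.0090 for Cacng8 and between -0.15 and 0.0040 for Cnih2, and the difference between the groups ranged from -0.084 to 0.296 percentage points for the Cacng3 share, from -1.47 to 0.543 for the Gria2 flip share, from -0.547 to 0.337 for the Gria3 flip share and from -1.99 to 7.17 for the Gria4 flip share. For transcript usage, voom weights, added after seeing the data, called 1 member (Gria4). The cause of these changes was not tested. Counting error weighs most on Cacng3, with as few as 588 estimated counts in a library.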
